A study of Sus scrofa with 6 samples.

Results

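The surface molecules by which T cells are recognised were examined in RNA from pig peripheral blood mononuclear cells (PBMCs), the mononuclear white cells of blood. The 10 genes were the CD3 chains CD3E, CD3D and CD3G, the coreceptors CD4, CD8A and CD8B, the costimulatory receptor CD28, and the adhesion and regulatory receptors CD2, CD5 and CD6. They were taken from the deposited table wherever its symbol column held 1 of these names. All 10 were found, each in 1 row, among 11564 genes. The table held 1 FPKM value (a fragment count scaled to transcript length and sequencing total, so that levels of different genes can be set side by side per length) for each gene in each of 6 libraries. Of these libraries, 3 carried the label WT (wild type, the WT label below) and 3 the label Leptin-overexpressing (leptin transgenic, the leptin label below), and every animal was a Yorkshire pig 6 months old. The study describes the transgene as the pig leptin coding sequence driven by the pig leptin promoter. According to its methods, the transgene was carried in a vector with a green fluorescent protein. It was put into fetal fibroblasts under drug selection, and pigs were then made by nuclear transfer. The methods describe the leptin pigs as made in this way and describe no breeding, and the labels give each library a code that begins with F1 without saying what it stands for. The controls were described as nontransgenic pigs without further detail. Nothing in the labels says how the libraries of a label relate to litters or cell clones, and p-values measure only the spread between these libraries.

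T cells recognise peptides through a T cell receptor that has no signalling tail of its own. The CD3 chains carry the signalling motifs and are assembled with the receptor at the surface of every T cell. CD4 binds MHC class II and marks helper and regulatory T cells, whereas CD8 binds MHC class I and is built either from a pair of CD8 alpha chains or from an alpha and a beta chain, encoded by CD8A and CD8B. In the pig, CD8 alpha alone is also found on NK cells, on part of the gamma-delta T cells and on activated or memory CD4+ T cells, so that CD8A RNA is not limited to cytotoxic T cells, while the beta chain is far more restricted to them. CD28 delivers the costimulatory signal on binding CD80 or CD86. CD2 is an adhesion receptor of T and NK cells, and CD5 and CD6 are related scavenger-receptor-like molecules that tune signalling from the T cell receptor. In bulk RNA, fewer cells of a type and less RNA per cell cannot be told apart.

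As a check of the labels, LEP, the gene that the transgene encodes, was read in each library. Under the WT label, LEP stood at 50.0 FPKM in replicate 1, was listed at 0 in replicate 2 and stood at 0.118 FPKM in replicate 3. Under the leptin label it was listed at 0 in replicate 1 and stood at 18.3 FPKM in replicate 2 and 39.3 FPKM in replicate 3. In both replicate 1 libraries, then, LEP went against the label. The labels were kept, and the comparisons of the 10 genes were made with all 6 libraries and again without both replicate 1 libraries. Summed over all genes, the FPKM values came to between 444888 and 503140 per library. FPKM values hold no read counts, and their low values showed no steps of whole reads, so that the depth of each library is unknown and precision rests on the 3 libraries per label.

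The 10 genes covered a wide range of levels, and 3 steps of that range were the same in all 6 libraries. CD3E had the highest mean, at 291.9 FPKM over the 6 libraries, above 97.8% of the 10735 genes tested. CD3G followed at 112.5 FPKM, CD2 at 101.6, CD6 at 90.6, CD3D at 90.3, CD5 at 87.2 and CD8A at 84.6 FPKM. CD4 had a mean of 31.4 FPKM, CD8B of 23.6 FPKM and CD28 of 5.97 FPKM, the last above 38.3% of the genes tested. CD3E was above CD3G in 6 of 6 libraries, with a geometric mean ratio (averaged on the log scale) of 2.58. CD8A was above CD4 in 6 of 6 libraries, with a geometric mean ratio of 2.65. CD8B was above CD28 in 6 of 6, with a geometric mean ratio of 4.34. An exact sign-flip test over the 6 libraries, two-sided, gave p = 0.0312 for each of these 3 steps, the smallest it can give, and 0.0938 after Benjamini-Hochberg adjustment over the 9 neighbouring pairs. CD4 was above CD8B in 5 of 6 libraries (exact sign-flip p = 0.0625, adjusted p = 0.141), the exception being wild type replicate 3. The neighbours from CD3G down to CD8A did not differ beyond their spread: each pair had the same order in at most 4 of 6 libraries, with exact sign-flip p from 0.156 to 0.812.

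**Figure D1:**
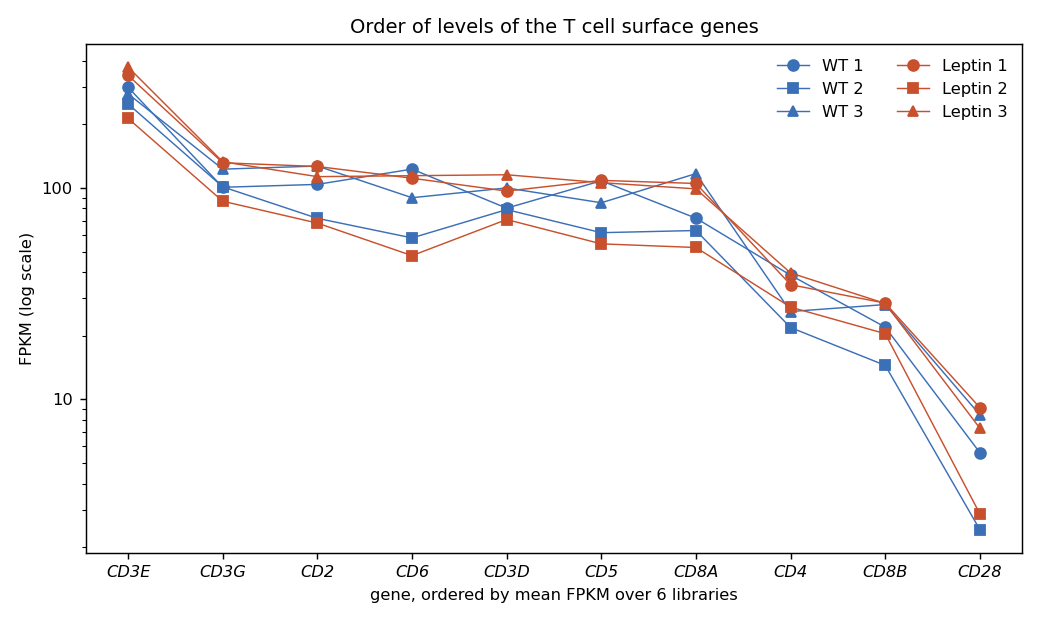
FPKM (log scale) of the 10 T cell surface genes in each of the 6 PBMC libraries, ordered from the highest mean to the lowest; each line is 1 library, blue for wild type (WT) and red for leptin transgenic (Leptin), with the replicate number as the marker shape. CD3E lies above every other gene and CD28 below every other gene in all 6 libraries, and the lines of the genes from CD3G to CD8A cross.

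The CD3 chains were the steadiest of the 10 genes across libraries. CD3E (ENSSSCG00000015092, chromosome 9 from 50660809 to 50675098 as the table lists it without naming a genome build) was at 298.6, 249.4 and 278.3 FPKM in wild type replicates 1 to 3 and at 340.1, 213.0 and 372.2 FPKM in leptin transgenic replicates 1 to 3. Its lowest and its highest value were both in libraries labelled leptin transgenic, and the wild type values lay between them. The difference in mean log2(FPKM + 1), leptin transgenic minus wild type, was 0.13 (standard error 0.22, 95% interval -0.39 to 0.64, adjusted p = 0.993, limma). CD3D (ENSSSCG00000015093, chromosome 9 from 50680924 to 50685383) was at 80.2, 78.9 and 99.9 FPKM under the WT label against 96.5, 70.8 and 115.3 FPKM under the leptin label, a log2 difference of 0.11 (standard error 0.21). CD3G (ENSSSCG00000015094, chromosome 9 from 50686386 to 50696073) was at 100.6, 101.1 and 122.6 FPKM against 131.4, 86.5 and 132.8 FPKM, a log2 difference of 0.091 (standard error 0.20) that became -0.054 without both replicate 1 libraries. For all 3 chains the lowest library was leptin transgenic replicate 2 and the highest was leptin transgenic replicate 3, and the labels overlapped. The 3 genes lie within 35265 bp of each other with no other row of the table between them. The highest value of a chain was between 1.54 times (CD3G) and 1.75 times (CD3E) its lowest. CD247, the zeta chain that completes the receptor complex and is encoded elsewhere, was at 262.8, 223.9 and 300.1 FPKM under the WT label against 332.1, 222.5 and 338.7 FPKM under the leptin label. Its level was thus close to that of CD3E, and it too was lowest in leptin transgenic replicate 2 and highest in leptin transgenic replicate 3.

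Of the coreceptors, CD4 and CD8B had the largest differences between the labels among the 10 genes, and neither difference exceeded the spread between libraries. CD4 (ENSSSCG00000000687, chromosome 5 from 66326562 to 66352898) was at 38.6, 21.9 and 26.0 FPKM in wild type replicates 1 to 3 and at 34.8, 27.3 and 39.6 FPKM in leptin transgenic replicates 1 to 3. Wild type replicate 1 lay among the libraries labelled leptin transgenic, and the other libraries labelled wild type lay below all of those. The log2 difference was 0.25 (standard error 0.24, 95% interval -0.29 to 0.79, adjusted p = 0.993, limma). Without both replicate 1 libraries the CD4 values no longer overlapped, and the log2 difference was 0.45 (standard error 0.24, 95% interval -0.15 to 1.05, adjusted p = 0.999, limma, 2 libraries against 2). In that comparison 1 of the 10 genes did not overlap, where 25.9% of all 10431 genes tested did not.

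CD8A (ENSSSCG00000008217, chromosome 3 from 60852722 to 60859738) was at 71.9, 62.9 and 116.8 FPKM under the WT label against 104.9, 52.2 and 98.9 FPKM under the leptin label. Its highest library was wild type replicate 3 and its lowest was leptin transgenic replicate 2. The log2 difference was 0.013 (standard error 0.32, 95% interval -0.73 to 0.75, adjusted p = 0.998, limma). Its sign changed with median-of-ratios scaling between libraries, to -0.052, and without both replicate 1 libraries, to -0.25. CD8B (ENSSSCG00000008213, chromosome 3 from 60577394 to 60679564) was at 21.9, 14.5 and 28.1 FPKM against 28.5, 20.4 and 28.4 FPKM. Here wild type replicate 2 was lowest, and wild type replicate 3 was close to leptin transgenic replicates 1 and 3, the highest libraries. The log2 difference was 0.28 (standard error 0.25, 95% interval -0.30 to 0.86, adjusted p = 0.993, limma).

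**Figure D2:**
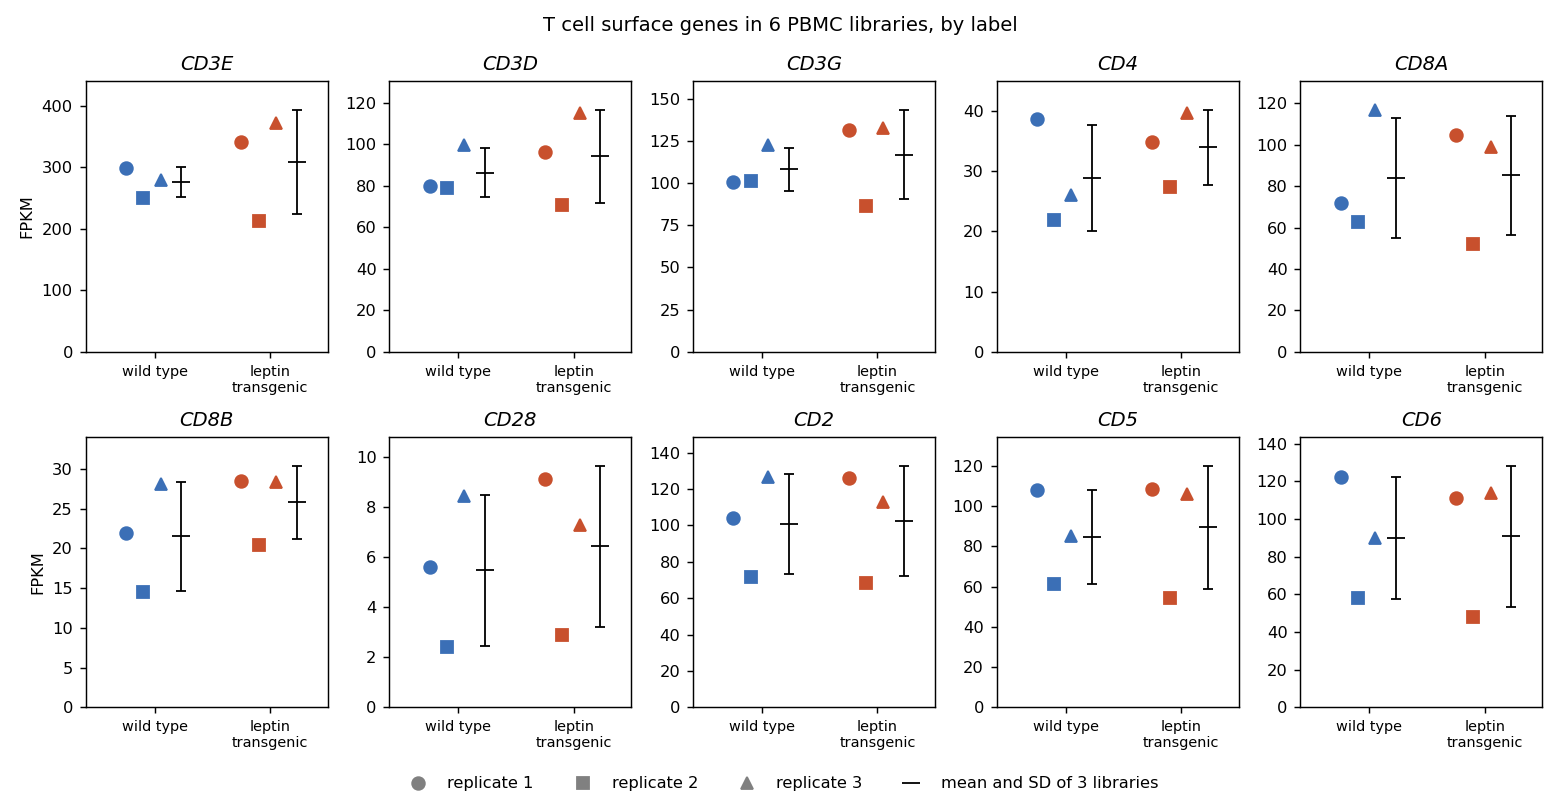
FPKM of each of the 10 T cell surface genes, with each point 1 library (marker shape gives the replicate number) and the black bar the mean and SD of the 3 libraries of a label; each axis starts at 0. The labels overlap for every gene, and the squares, which are the replicate 2 libraries, are the lowest of their label for 9 of 10 genes under wild type and for all 10 under leptin transgenic.

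The receptors for costimulation and adhesion varied more between libraries than the CD3 chains. CD28 (ENSSSCG00000028561, chromosome 15 from 118472582 to 118501321) was at 5.60, 2.42 and 8.45 FPKM in wild type replicates 1 to 3 and at 9.14, 2.88 and 7.31 FPKM in leptin transgenic replicates 1 to 3. Its highest value was 3.78 times its lowest, the widest range of the 10 genes, and both replicate 2 libraries were below 3 FPKM while the other libraries were above 5 FPKM. The log2 difference between the labels was 0.20 (standard error 0.44, 95% interval -0.82 to 1.23, adjusted p = 0.993, limma), and it was -0.0029 without both replicate 1 libraries. CD2 (ENSSSCG00000006736, chromosome 4 from 113925944 to 113941749) was at 103.8, 71.7 and 126.8 FPKM under the WT label against 126.2, 68.1 and 113.0 FPKM under the leptin label. The replicate 2 library was again the lowest of each label, and the CD2 log2 difference was 0.013 (standard error 0.29), with a changed sign under median-of-ratios scaling (-0.052) and without both replicate 1 libraries (-0.12).

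CD5 (ENSSSCG00000013115, chromosome 2 from 10251311 to 10262365), an inhibitory receptor of T cells that part of the B cells also carry, was at 108.0, 61.4 and 85.0 FPKM under the WT label against 108.5, 54.3 and 105.8 FPKM under the leptin label. CD6 (ENSSSCG00000013111, chromosome 2 from 10240960 to 10329777), which binds ALCAM, was at 122.6, 58.0 and 89.8 FPKM against 111.0, 47.8 and 114.2 FPKM. Both genes were lowest in leptin transgenic replicate 2 and next lowest in wild type replicate 2, and their highest values were 1.996 and 2.56 times their lowest. The log2 differences were 0.049 (standard error 0.31) for CD5 and -0.024 (standard error 0.38) for CD6, the 1 negative value of the 10. Median-of-ratios scaling turned CD5 to -0.017, and leaving out both replicate 1 libraries turned CD6 to 0.035. CD5 and CD6 had the most similar profile of all 45 pairs of these genes, with a Pearson r of 0.995 over the 6 libraries. The table lists the whole CD5 locus, 11055 bp, inside the CD6 locus. The libraries were strand-specific according to the labels, the sources used here do not say whether strand was used in counting, and the part of shared reads in this likeness was not tested.

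None of the 10 genes differed between the labels by the test. With an adjusted p under 0.05 in limma, 0 of the 10 were called, as against 1 of the 10735 genes tested (0.00932%). At an unadjusted p under 0.05, 0 of the 10 passed, where 341 of all genes tested did (3.18%), 213 of them higher and 128 lower under the leptin label. With median-of-ratios scaling, those numbers were 167 higher and 250 lower, and again 0 of the 10 genes passed. The lowest unadjusted p among the 10 was 0.293, that of CD8B. The labels did not overlap for 0 of the 10 genes and for 819 of all genes (7.63%). The log2 difference was above 0 for 9 of the 10 genes, where 63.1% of all genes tested were above 0, and the median of the 10 was 0.098 beside 0.059 over all genes tested. With median-of-ratios scaling, which brought the median of all genes to 0.0020, 6 of the 10 were above 0 and their median was 0.033. Without both replicate 1 libraries, 6 of the 10 were above 0 (43.2% of all genes), and 0 of the 10 had an unadjusted p under 0.05 (2.32% of all genes). The narrowest 95% interval of a log2 difference was that of CD3G, from -0.38 to 0.56, and the widest that of CD28, from -0.82 to 1.23.

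**Figure D3:**
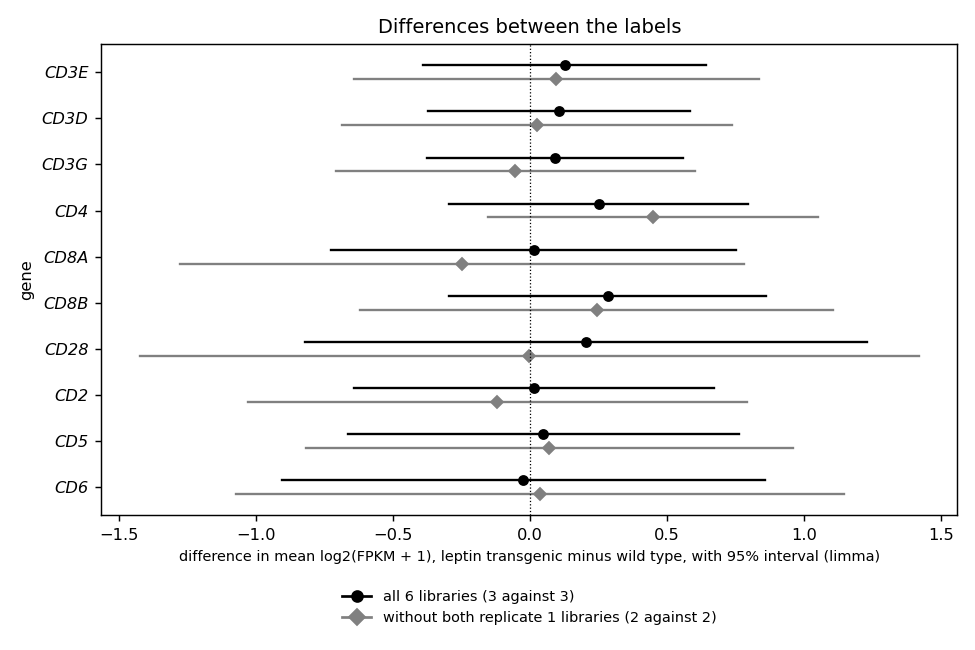
Difference in mean log2(FPKM + 1) between the libraries labelled leptin transgenic and wild type for each gene, with 95% intervals from limma; black circles use all 6 libraries and gray diamonds leave out both replicate 1 libraries. Every interval spans 0 in both comparisons, and the point for CD4 moves from 0.25 to 0.45 while that for CD8A moves from 0.013 to -0.25.

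Ratios within a library do not depend on how libraries are scaled to each other, and 6 such ratios were compared. The ratio of CD4 to CD8A was 0.537, 0.348 and 0.223 in wild type replicates 1 to 3 and 0.332, 0.523 and 0.400 in leptin transgenic replicates 1 to 3. The highest and the lowest ratio, 2.41 times apart, were both in libraries labelled wild type, and the values labelled leptin transgenic lay between them. The mean was 0.369 ± 0.158 (SD, n = 3) for wild type and 0.418 ± 0.0965 (SD, n = 3) for leptin transgenic, a log2 difference of 0.25 (standard error 0.41, exact permutation test, two-sided, p = 0.7). Without wild type replicate 3, which had the lowest ratio, the log2 difference was -0.072. Without both replicate 1 libraries it was 0.72 and the values did not overlap (exact permutation test, two-sided, p = 0.333, the smallest that 2 libraries against 2 can give). RNA of CD8A thus exceeded RNA of CD4 per length in every library.

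The ratio of CD8A to CD8B, which sets the chain found on several cell types against the more restricted one, was 3.28, 4.34 and 4.16 under the WT label and 3.68, 2.56 and 3.48 under the leptin label. The ratio was lowest in leptin transgenic replicate 2, and wild type replicate 1 lay within the leptin transgenic values. The mean was 3.93 ± 0.570 (SD, n = 3) against 3.24 ± 0.600 (SD, n = 3), a log2 difference of -0.28 (standard error 0.21, exact permutation test, two-sided, p = 0.3). This was the smallest p of the 6 ratios, and its adjusted value over the 6 was 0.9. Without both replicate 1 libraries the ratio was lower in both libraries labelled leptin transgenic than in those labelled wild type, by a log2 difference of -0.51 (exact permutation test, two-sided, p = 0.333).

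Set against CD3E, which every T cell carries, CD4 was at 0.129, 0.0876 and 0.0935 under the WT label and at 0.102, 0.128 and 0.106 under the leptin label. Without both replicate 1 libraries these values did not overlap (log2 difference 0.37, exact permutation test, two-sided, p = 0.333). CD8A was at 0.241, 0.252 and 0.420 of CD3E against 0.308, 0.245 and 0.266. Wild type replicate 3 thus held the most CD8A per CD3E, and it was also highest for CD2 per CD3E, at 0.456, where the other libraries lay between 0.288 and 0.371. CD28 was at 0.0188, 0.00971 and 0.0304 of CD3E under the WT label and at 0.0269, 0.0135 and 0.0196 under the leptin label. The replicate 2 libraries were thus low in CD28 also relative to CD3E. The exact permutation p of these 4 ratios lay between 0.6 and 0.9, and the adjusted p over all 6 ratios was 0.9 for each. The smallest p that 3 libraries against 3 can give in this test is 0.1.

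**Figure D4:**
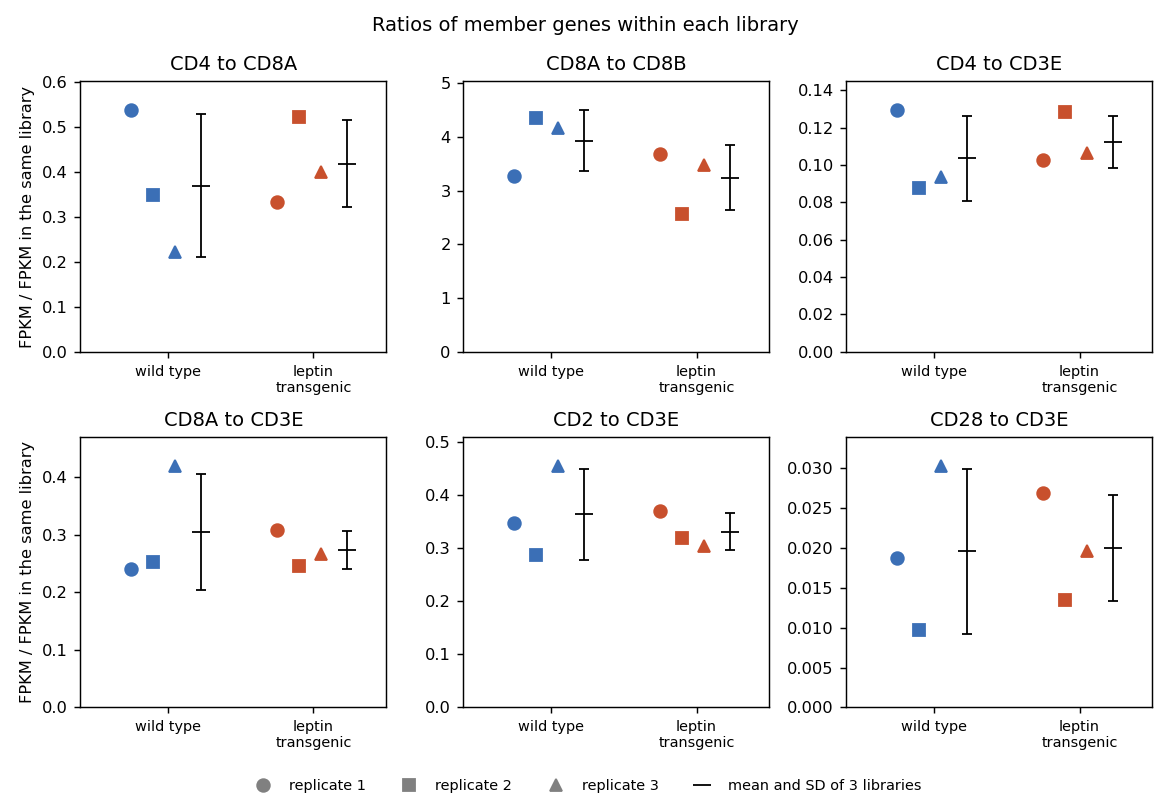
Ratio of the FPKM values of 2 genes within each library, for 6 gene pairs; points are libraries (marker shape gives the replicate number), black bars are the mean and SD of the 3 libraries of a label, and each axis starts at 0. The ratio of CD4 to CD8A runs from 0.223 to 0.537 under wild type and from 0.332 to 0.523 under leptin transgenic, so that the labels overlap, as they do for the other 5 ratios.

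Most of the 10 genes were low in the same libraries, 1 of each label. Summed over the 10, their level was 951.9, 722.1 and 981.7 FPKM in wild type replicates 1 to 3 and 1091, 643.4 and 1127 FPKM in leptin transgenic replicates 1 to 3. For 9 of the 10 genes wild type replicate 2 was the lowest or second lowest library, and the same held for 9 of the 10 in leptin transgenic replicate 2. Leptin transgenic replicates 1 and 3 were among the 3 highest libraries for all 10. The mean deviation of the 10 genes from their mean over the 6 libraries, in log2(FPKM + 1), was -0.43 in wild type replicate 2, -0.48 in leptin transgenic replicate 2, and 0.32 in both leptin transgenic replicates 1 and 3. Their median SD over the 6 libraries was 0.38 in log2(FPKM + 1), against 0.22 for all genes tested, and it was lowest for CD3G (0.25) and highest for CD28 (0.67).

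Pearson r between 2 of the genes over the 6 libraries, all genes being read in the same libraries of unknown depth, had a median of 0.803 over the 45 pairs. For CD3E, CD8A and CD4, the median r with all other genes tested was 0.214, 0.395 and -0.0062. CD4 stood somewhat apart from most of the other 9 genes: its r with them ran from 0.345 (with CD8A) to 0.825, with a median of 0.606, whereas the 36 pairs without CD4 had a median of 0.842 and a lowest value of 0.672. With CD5, CD6 and CD3E, however, CD4 had an r of 0.825, 0.807 and 0.753, within the range of the pairs without CD4. CD4 was nearly as high in wild type replicate 1 as in its highest library, leptin transgenic replicate 3, whereas CD3D, CD3G, CD8A, CD8B and CD28 were in wild type replicate 1 below their mean over the 6 libraries. CD6, CD5, CD3E and CD2 were above theirs in that library, and for CD6 it was the highest of all. The 5 named genes outside the 10 whose profile was most like that of CD3E were MPP7, MED14, ZNF184, DGKA and SATB1, with r from 0.980 to 0.988 over the 6 libraries. Those most like CD4 were MESDC1, SS18L1, GAS6, AP5B1 and IGFBP7, with r from 0.955 to 0.976, and those most like CD8A were NKTR, CCNL2, SFSWAP, ATXN2L and ACLY, with r from 0.992 to 0.995. Beside these values, 1.26% of all genes had an r over 0.9 with CD3E, 4.98% with CD8A and 0.307% with CD4.

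Markers of the cell types that PBMCs can hold were read beside these genes. Of 10 T cell markers, a list that holds CD3E, CD3D and CD3G themselves, 9 were found, all above 0 in every library, with a summed level of 1027 to 1240 FPKM under the WT label and 926 to 1488 FPKM under the leptin label. TRAC was not found by name, and SOX13 was the 1 of 3 gamma-delta T cell markers found, at 18.8 to 29.8 FPKM. Of 8 NK cell markers, 7 were found (NCR1, like CD68 and PPBP in the lists below, in more than 1 row), with 140.6 to 281.0 FPKM against 121.9 to 233.6 FPKM in sum, and KLRD1 was listed at 0 in 4 libraries. As a mean over the list, the NK cell markers were low in the same libraries as the T cell genes. The mean deviations were -0.46 in wild type replicate 2 and -0.57 in leptin transgenic replicate 2. GZMB, KLRK1, NKG7 and PRF1 were lowest in the replicate 2 libraries, but not every marker followed. KLRB1 was at 4.26 FPKM in wild type replicate 2, in a range of 1.26 to 4.98 FPKM. The rows of NCR1 were at 2.32 and 2.72 FPKM in leptin transgenic replicate 2, above wild type replicate 1 (1.75 and 2.12 FPKM).

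Of 9 B cell markers, 7 were found, with 409.7 to 756.9 FPKM against 572.3 to 730.1 FPKM in sum, and they were lowest in wild type replicate 1 and highest in wild type replicate 2. Of 10 monocyte markers, 8 were found, with 427.7 to 940.1 FPKM against 581.3 to 955.2 FPKM, and CD14 was at 99.9 to 291.4 FPKM in the 6 libraries. The summed monocyte level was highest in leptin transgenic replicate 2, where 7 of the 10 T cell genes were lowest. LYZ, at 441.6 FPKM, and CD14, at 262.9 FPKM, were part of that sum. It was next highest in wild type replicate 1 (940.1 FPKM), where the mean deviation of the 10 genes was 0.084. In wild type replicate 2, where the T cell genes were also low, it was only 513.4 FPKM. The mean deviation of the monocyte list was 0.253 in wild type replicate 1, 0.247 in leptin transgenic replicate 2 and 0.0015 in wild type replicate 2. Of 7 neutrophil markers, 5 were found, with 358.4 to 3443 FPKM against 355.9 to 1033 FPKM, the highest sum being that of wild type replicate 1. Of 6 platelet markers, 5 were found, with 185.9 to 439.9 FPKM against 131.5 to 396.0 FPKM. Of 6 erythroid markers, 2 were found, with 25.1 to 217.1 FPKM against 21.8 to 102.0 FPKM, and of 5 markers of plasmacytoid dendritic cells 1 was found (TCF4, at 4.09 to 10.2 FPKM). None of the markers found in the B cell, monocyte, neutrophil, platelet and erythroid lists was at 0 in any library. The part of these other cells in the values of the 10 genes was not tested.

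**Figure D5:**
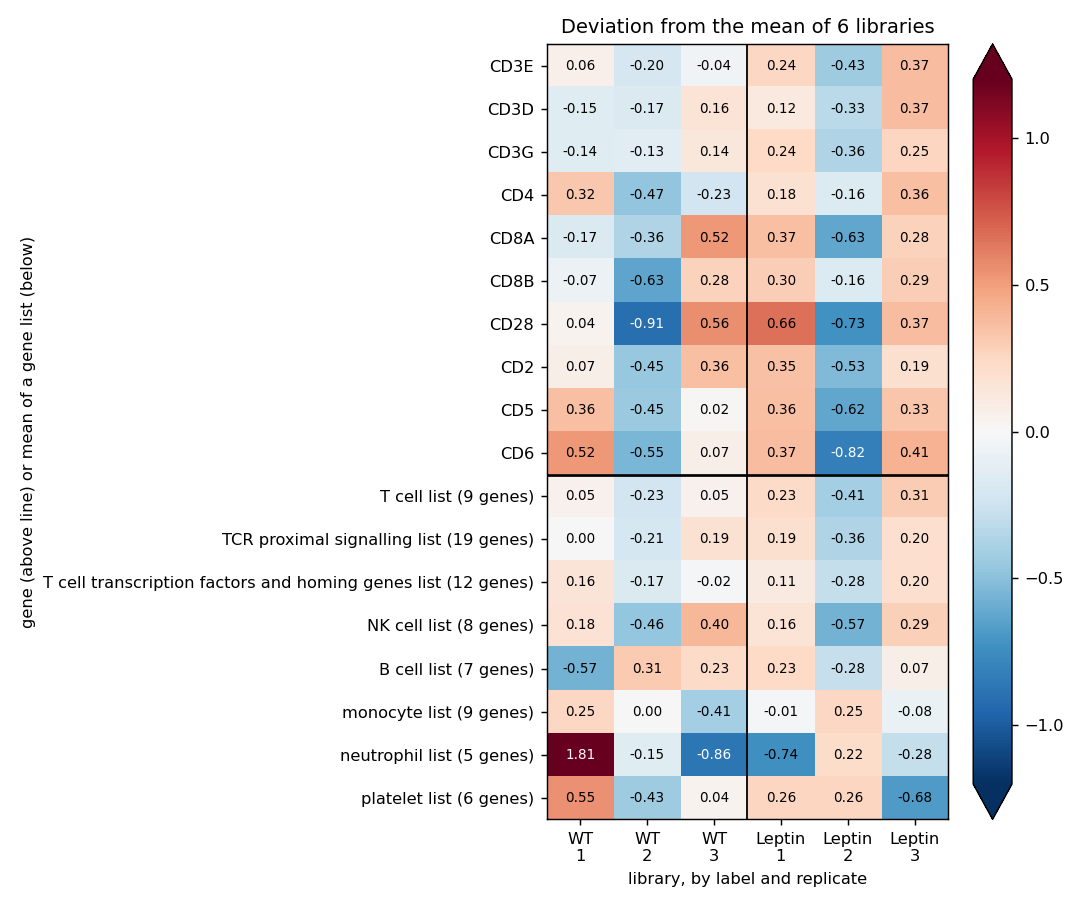
Deviation of log2(FPKM + 1) from its mean over the 6 libraries, for each of the 10 genes (above the line) and as the mean over the genes of a marker or pathway list (below the line), with 1 column per library (WT, wild type; Leptin, leptin transgenic); red is higher and blue is lower, and the number in each cell is the value. The T cell genes and the NK cell list are low in both replicate 2 libraries, while the B cell list is high in wild type replicate 2 (0.31) and low in leptin transgenic replicate 2 (-0.28), and the neutrophil list stands at 1.81 in wild type replicate 1.

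Of 21 genes of proximal signalling from the T cell receptor, 19 were tested, and 0 passed the adjusted or the unadjusted p threshold of 0.05 (limma). Over all 10735 genes tested, 1 passed the adjusted threshold and 3.18% the unadjusted one. Of the 19, 11 had a log2 difference above 0 and 8 below, where 63.1% of all genes tested were above 0. Their median was 0.033, beside 0.059 over all genes tested. The labels did not overlap for 1 of the 19, where they did not for 7.63% of all genes. It was LCP2, the adaptor SLP-76, at 198.8, 204.5 and 194.6 FPKM under the WT label against 177.4, 186.0 and 183.7 FPKM (log2 difference -0.13, standard error 0.13, adjusted p = 0.993, limma). The mean deviation of the 19 was lowest in the same libraries as that of the surface genes, at -0.21 in wild type replicate 2 and -0.36 in leptin transgenic replicate 2. LCK, the kinase that binds the tails of CD4 and CD8, was at 103.4, 66.9 and 101.05 FPKM under the WT label against 108.2, 60.8 and 113.7 FPKM under the leptin label. Like 9 of the 10 surface genes, LCK was lowest in the replicate 2 library of each label. ZAP70, the kinase recruited to the phosphorylated CD3 and zeta chains, ran from 91.4 to 149.5 FPKM over the 6 libraries. PTPRC, the phosphatase CD45 that nearly all leukocytes carry, stayed between 431.4 and 452.9 FPKM. GRAP2, an adaptor of the LAT complex, had the highest log2 difference of the list (0.47, standard error 0.22, adjusted p = 0.993, limma), and PTPN22, a phosphatase that restrains the receptor, the lowest (-0.36, standard error 0.21, adjusted p = 0.993, limma).

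The KEGG pathway of T cell receptor signalling, as annotated in the table, held 56 genes, among them CD3E, CD3D, CD3G, CD4, CD8A, CD8B and CD28. Of the 54 tested, 0 passed at the adjusted p, and at the unadjusted p 2 were higher (TNF and NFKBIA) and 2 lower (CBL and NFAT5), where 3.18% of all genes passed it. The labels did not overlap for 3 that were higher and 5 that were lower, where they did not for 7.63% of all genes. The median log2 difference was 0.059, beside 0.059 for all genes tested. TNF, the inflammatory cytokine, was at 18.4, 8.76 and 35.9 FPKM under the WT label against 43.3, 47.5 and 46.6 FPKM under the leptin label, a log2 difference of 1.29 (standard error 0.41, adjusted p = 0.993, limma). CBL, a ubiquitin ligase that restrains receptor signalling, was at 15.3, 11.7 and 10.2 FPKM against 7.60, 7.80 and 10.1 FPKM, a log2 difference of -0.49 (standard error 0.19, adjusted p = 0.993, limma). Monocytes and other cells also express both genes.

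Ligands of the 10 genes were found for 9 of 14 symbols, and 0 of the 9 passed at the adjusted p and 1, CD80, at the unadjusted p (limma), which 3.18% of all genes passed. CD80 and CD86, the ligands of CD28 on antigen-presenting cells, were both lower in each library labelled leptin transgenic than in any labelled wild type. CD80 was at 12.1, 16.0 and 16.4 FPKM under the WT label against 10.1, 7.60 and 10.6 FPKM under the leptin label, a log2 difference of -0.60 (standard error 0.18, adjusted p = 0.993, limma). CD86 was at 29.6, 30.3 and 26.8 FPKM against 24.5, 25.7 and 22.2 FPKM, a log2 difference of -0.25 (standard error 0.14, adjusted p = 0.993, limma). These were the 2 of 9 ligand genes whose labels did not overlap, where 7.63% of all genes did not. ALCAM, the ligand of CD6, was at 6.29, 5.03 and 4.87 FPKM against 3.91, 8.43 and 6.51 FPKM, and the labels overlapped. SLA-DRA, a chain of the MHC class II molecule that CD4 binds, was at 578.5, 1138 and 1058 FPKM against 1192, 1110 and 795.6 FPKM, and was lowest in wild type replicate 1. SLA-1, an MHC class I heavy chain that CD8 can bind, was at 50.2 FPKM in wild type replicate 1 and between 424.0 and 1217 FPKM in the other 5 libraries.

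Of 18 further costimulatory and inhibitory receptors, 11 were found and 10 tested, with 0 past the adjusted p. The log2 difference was above 0 for 7 and below 0 for 3, where 63.1% of all genes tested were above 0. The median log2 difference was 0.13, beside 0.059 over all genes tested. CD244, a receptor of NK cells and part of the CD8+ T cells, was at 16.3, 16.0 and 23.8 FPKM under the WT label against 28.1, 26.3 and 31.2 FPKM under the leptin label, without overlap (log2 difference 0.60, standard error 0.19, adjusted p = 0.993, limma). It was the 1 of these 10 genes with an unadjusted p under 0.05, where 3.18% of all genes had one, and the 1 without overlap, where 7.63% of all genes had none. TIGIT, an inhibitory receptor, had the lowest log2 difference, -0.41 (standard error 0.38), with overlapping labels. CD27, a costimulatory receptor, had the highest mean at 93.7 FPKM, and CTLA4, the inhibitory receptor that competes with CD28 for CD80 and CD86, the lowest at 0.979 FPKM. CTLA4 was below 1 FPKM in 4 of the 6 libraries and was not tested.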

How the data were processed

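PBMC RNA was measured in 6 pigs, 3 per label. The deposited table holds FPKM values that the authors made: the submitters' processing notes name FastQC, STAR 2.5, Cuffnorm and DESeq 1.22.1, and the study's methods name Bowtie, RSEM and the Ensembl version 75 transcriptome. Neither names a genome assembly, and since they name different aligners, which of them the coordinates of the table follow is not settled. The authors' fold changes, p-values and FDRs in the table were not used. FPKM carries no read counts, so depth, counting error and a count test could not be had.

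From the FPKM values, genes at 1 FPKM or more in at least 3 libraries (10735 of 11564) were tested on log2(FPKM + 1) with limma 3.58.1 (R 4.3.3), two-sided, with Benjamini-Hochberg adjustment over all genes tested. Fold changes on this scale understate those of low genes. Ratios within a library were tested by exact permutation, and neighbouring levels by an exact sign-flip test (Python 3.11.15). The fit was tested on simulated data, in which 200 genes were given a set log2 difference between the labels. At a log2 difference of 1, 47.5% of them were called at an adjusted p under 0.05, with 8 false calls. At a log2 difference of 2, 95% were called, with 14 false calls.

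The genes and lists were chosen with earlier results of these data known. Each list was to be described by counts and by up to 4 genes (highest and lowest mean, highest and lowest difference). CD247, LCK, ZAP70, LCP2, CD86, SLA-DRA, NFKBIA, NFAT5, TNF and CBL fall outside or beside that rule and were named after their values were seen. Of 4000 genes without a symbol, 1504 were named from the reference gene names. Alternatives changed the pseudocount, filter, scaling, variance moderation, replicate block and libraries.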

Additional observations from a re-analysis of the deposited data

How the results depend on the processing

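Of 140 log2 differences (10 genes under 14 alternatives), 113 kept their direction and 27 reversed. CD4 and CD8B were the 2 genes that never reversed, and the lowest adjusted p was 0.632 (CD8B without wild type replicate 3, limma). Median-of-ratios scaling reversed CD8A (-0.052), CD2 (-0.052) and CD5 (-0.017). Leaving out both replicate 1 libraries reversed CD3G (-0.054), CD8A (-0.25), CD28 (-0.0029), CD2 (-0.12), CD6 (0.035) and the ratio of CD28 to CD3E (-0.076). It left 1 of the 10 genes (CD4) and 2703 of all genes without overlap, and 0 of all genes at the adjusted p.

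With 1 library left out in turn, the log2 difference ran from -0.029 to 0.37 for CD3E, -0.053 to 0.29 for CD3D, -0.014 to 0.29 for CD3G, 0.078 to 0.47 for CD4, -0.17 to 0.33 for CD8A, 0.037 to 0.49 for CD8B, -0.20 to 0.62 for CD28, -0.21 to 0.28 for CD2, -0.16 to 0.37 for CD5 and -0.31 to 0.38 for CD6. The log2 ratio difference ran from -0.072 to 0.56 for CD4 to CD8A, -0.41 to -0.12 for CD8A to CD8B, 0.023 to 0.30 for CD4 to CD3E, -0.26 to 0.14 for CD8A to CD3E, -0.27 to 0.062 for CD2 to CD3E and -0.31 to 0.51 for CD28 to CD3E. Between 0 and 3 of the 10 genes did not overlap: CD4 without wild type replicate 1, where 14.4% of all genes did not, and CD3E, CD3G and CD8B without leptin transgenic replicate 2, where 18.7% did not. Over all genes (10571 to 10642 tested), 0 to 3 passed the adjusted p, 247 to 846 the unadjusted p (846 without wild type replicate 3), and 1303 to 2836 did not overlap.

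The all-gene count at the adjusted p was also 0 where each library had to reach 1 FPKM and 0 without variance moderation. The replicate numbers did not pair the libraries: r between same-numbered libraries was -0.28, 0.13 and -0.0073, and leptin transgenic replicate 1 correlated best with wild type replicate 3 (0.34). With the replicate block, 0 of the 10 genes and 2 of all genes were called. The causes of these changes were not tested. Unknown depth leaves the 3 libraries per label as the limit on precision.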

Other observations

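Of 15 transcription factors and homing genes of T cells, 12 were tested, and 0 passed the adjusted or the unadjusted p threshold of 0.05 (limma). Of all 10735 genes tested, 1 passed the adjusted threshold and 3.18% the unadjusted one. Of the 12, 6 had a log2 difference above 0 and 6 below, where 63.1% of all genes tested were above 0. Their median was -0.019, beside 0.059 over all genes tested, and IL7R, the interleukin-7 receptor chain, had the lowest log2 difference (-0.21). CCR7, a homing receptor of naive and central memory T cells, was at 35.3, 20.4 and 17.2 FPKM under the WT label against 29.1, 16.5 and 35.3 FPKM under the leptin label. FOXP3, the factor of regulatory T cells, had the lowest mean. It was at 1.98, 3.43 and 1.82 FPKM under the WT label against 2.48, 1.37 and 2.83 FPKM under the leptin label, and both labels held low and high values.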
